A study of Mus musculus with 9 samples.

Results

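The set described here is a group of 8 mouse noncoding RNA genes, taken from 24445 genes of a table of read counts for macrophages. It was chosen by name from the genes that the table lists through a noncoding RefSeq transcript, of which there were 3962. Earlier results of these data were known when the set was chosen. It holds 3 host genes of microRNAs (Mir155hg, Mir17hg and Mir22hg), 2 long RNAs of the nucleus (Neat1 and Malat1) and 3 host genes of small nucleolar RNAs (Gas5, Snhg1 and Snhg12). Where a gene had several transcripts, the one with most counts was used. Of the 8 genes, 7 had enough counts to be tested, and Mir17hg did not.

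RNA sequencing covered 9 libraries, 3 per group, of macrophages that C57Bl/6 mouse bone marrow cells give rise to in culture. In Veh_N both steps, 1 h and then 24 h, used vehicle. Veh_LPS cells were given vehicle for 1 h and then lipopolysaccharide (LPS), the outer membrane glycolipid of Gram-negative bacteria, for 24 h. D2HG_LPS cells were given D2HG octyl ester, a cell-permeable form of D-2-hydroxyglutarate, for 1 h before 24 h of LPS. The series asks what the ester does to the LPS response. No group received the ester without LPS, and the labels used here state no dose. Nothing in the labels ties the replicates to separate animals or separate cultures. The p-values therefore reflect the spread between these 9 samples alone, which may be technical.

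A host gene is transcribed into a long RNA from which smaller RNAs are cut. In microRNA host genes the Drosha and Dgcr8 complex cuts a hairpin out of the primary transcript, Dicer trims it, and an Argonaute protein uses the mature strand to find messenger RNAs that pair with its seed. In the small nucleolar RNA host genes the small RNAs lie in introns and are freed by splicing, and the spliced host RNA is translated poorly and degraded by nonsense-mediated decay when ribosomes stall or end early on it. Several such hosts start transcription at a tract of pyrimidines, the 5′ terminal oligopyrimidine motif shared with ribosomal protein genes. Neat1 builds paraspeckles, nuclear bodies that need its long form, while its short form shares the same start and ends early. Malat1 sits in nuclear speckles, where splicing factors gather. In macrophages miR-155 is a textbook LPS-induced microRNA, and miR-17-92 is known as a cluster driven by Myc.

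The counts cover host transcripts and not mature microRNAs, so the mature sequences are given to show what each host carries. They come from RefSeq, build GRCm38.p6, all on the plus strand, with the seed (bases 2 to 8) in capitals. For each hairpin the strand best known for its targets is shown.

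mmu-miR-155-5p, in Mir155hg, chr16:84714143-84714165: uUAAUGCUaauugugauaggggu

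mmu-miR-22-3p, in Mir22hg, chr11:75463772-75463793: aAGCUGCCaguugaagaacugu

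mmu-miR-17-5p, Mir17hg cluster, chr14:115043684-115043706: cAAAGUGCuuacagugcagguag

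mmu-miR-20a-5p, Mir17hg cluster, chr14:115044183-115044205: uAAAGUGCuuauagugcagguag

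mmu-miR-18a-5p, Mir17hg cluster, chr14:115043867-115043889: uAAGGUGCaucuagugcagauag

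mmu-miR-19a-3p, Mir17hg cluster, chr14:115044048-115044070: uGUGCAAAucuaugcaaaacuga

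mmu-miR-19b-3p, Mir17hg cluster, chr14:115044358-115044380: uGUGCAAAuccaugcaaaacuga

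mmu-miR-92a-3p, Mir17hg cluster, chr14:115044476-115044496: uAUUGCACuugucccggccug

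The miR-17 and miR-20a strands share the seed AAAGUGC, and the miR-19a and miR-19b strands share GUGCAAA. The seeds of miR-18a, miR-92a, miR-155 and miR-22 each occur in 1 of the strands shown. The RefSeq span of Mir17hg in this build holds 1 of the 6 cluster hairpins (the miR-92a hairpin), while the GENCODE vM21 span holds all 6. The spans of Mir155hg and Mir22hg hold their hairpins in both annotations.

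For the small nucleolar RNA hosts the sequence that differs between members is the start of transcription. The next lines give 50 bases around each annotated start (RefSeq, GRCm38.p6), with base 21 of each line as the start. Capitals mark a C followed by at least 4 pyrimidines that begins within 5 bases of the start.

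Gas5, the downstream of its 2 annotated starts, chr1:161035146-161035195, plus strand: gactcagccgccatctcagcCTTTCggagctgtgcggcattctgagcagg

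Snhg12, chr4:132308658-132308707, plus strand: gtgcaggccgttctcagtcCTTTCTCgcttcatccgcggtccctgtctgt

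Snhg1, chr19:8723467-8723516, plus strand: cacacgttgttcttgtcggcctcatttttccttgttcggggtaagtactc

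Such a pyrimidine start was found at the downstream Gas5 start, at Snhg12 and, 5 bases after the start, at Mir22hg. It was not found at the upstream Gas5 start or at Snhg1, Mir155hg, Mir17hg or Malat1 as annotated. It was present in 18.3% of all 32851 windows and, counted by gene, in 21.2% of 27025 genes and in 6 of 15 other small nucleolar RNA hosts that have a window. Windows of 300 bases, from 250 before the start to 50 after it, were also searched on both strands for TGACGTCA (the cyclic AMP response element), the TATA sequence TATAAA, the E-box CACGTG and, by consensus, for AP-1, interferon response and kappaB sites. The downstream Gas5 window held TGACGTCA, as did 1.79% of all windows, and the Snhg1 window held TATAAA, as did 13.6%. The other motifs were not found in these letters for any of the 7 members with a window, Mir155hg included. The annotated RefSeq start of Mir17hg lies inside the cluster, after the miR-19b-3p strand. Its window therefore says nothing about the start of a transcript that carries all 6 hairpins.

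Levels are given as counts per 1000000 library counts (CPM) scaled to a common library size with TMM factors, and folds come from edgeR's quasi-likelihood test on all 9 libraries. A gene was called where its p, adjusted by Benjamini-Hochberg over 11622 tested genes, was below 0.05. Under LPS 73.9% of all tested genes were called, 35% higher and 38.9% lower. Of the 7 members tested, all 7 were called, 2 higher and 5 lower. The Veh_LPS and Veh_N libraries overlapped for none of the 7, 2 higher and 5 lower, as for 73.5% of all tested genes (34.5% higher, 39% lower). Mir155hg passed the filter on low counts through the LPS-treated libraries alone and Snhg12 mainly through the Veh_N libraries, so their passing was tied to their change. The median log2 fold change of the 7 was -0.95, against -0.31 for the 566 tested genes with a noncoding transcript and -0.07 for all tested genes. Among those 566 genes 26.5% were called higher and 42.2% lower. Because the set was chosen with earlier results of these data known, these contrasts describe the set only. In bulk RNA, fewer cells of a type and less RNA per cell cannot be told apart.

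**Figure D1:**
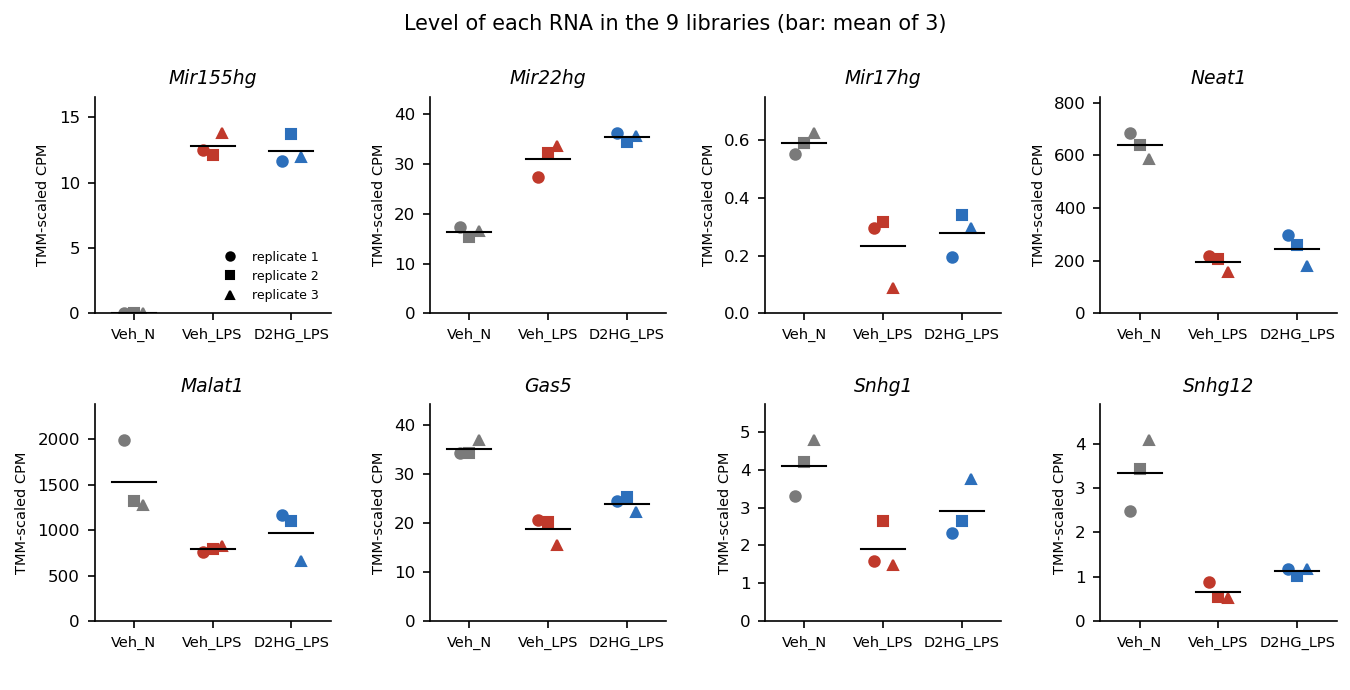
TMM-scaled CPM of the 8 RNAs in each library (y axes, linear from 0), by group on the x axis, with replicates 1 to 3 as circle, square and triangle and the mean of 3 as a bar. Mir155hg lies at 0 in Veh_N and between 11.7 and 13.8 CPM in the LPS-treated libraries, Mir22hg is higher and Neat1, Malat1, Gas5, Snhg1 and Snhg12 are lower in Veh_LPS than in Veh_N.

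Mir155hg, the primary transcript of miR-155, was absent from the counts of all 3 Veh_N libraries and present in all 6 LPS-treated ones. It had 0 counts in each Veh_N library, 12.5, 12.1 and 13.8 CPM in Veh_LPS, and 11.7, 13.7 and 11.9 CPM in D2HG_LPS. The LPS-treated groups lay wholly above Veh_N and overlapped each other. Against a floor of 3 counts per Veh_N library, the level was at least 62.0-fold higher in Veh_LPS (399 counts in all) and at least 60.3-fold higher in D2HG_LPS. By edgeR's quasi-likelihood test the Benjamini-Hochberg adjusted p was 1.15e-09 for Veh_LPS over Veh_N. Mir155hg passed the filter on low counts through the LPS-treated libraries alone, so this p adds no separate support to the counts.

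Between D2HG_LPS and Veh_LPS the log2 fold change of Mir155hg was -0.04 ± 0.14 (SE), with a 95% interval of -0.35 to 0.27 (edgeR, Benjamini-Hochberg adjusted p = 0.92). Its sign turned without Veh_LPS replicate 3 (0.02) or D2HG_LPS replicate 1 (0.0029) and with library totals alone (0.02), and the gene was called in none of these fits. The Mir155 hairpin has its own line in the table, which held 3 counts over all 9 libraries.

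Mir22hg, the host of miR-22, was higher under LPS in every library. Its level was 17.3, 15.3 and 16.5 CPM in Veh_N, 27.5, 32.1 and 33.6 CPM in Veh_LPS, and 36.3, 34.4 and 35.7 CPM in D2HG_LPS. The 3 groups did not overlap, with Veh_N lowest and D2HG_LPS highest. The log2 fold change of Veh_LPS over Veh_N was 0.93 ± 0.10 (SE, n = 3; edgeR, Benjamini-Hochberg adjusted p = 3.99e-06), and it was 0.26 with library totals alone, still called. For D2HG_LPS over Veh_LPS it was 0.19 ± 0.10, with a 95% interval of -0.03 to 0.41 (adjusted p = 0.402), and it ran from 0.11 (without Veh_LPS replicate 1) to 0.25 without single libraries. The Mir22 hairpin line held 62 counts over the 9 libraries.

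Mir17hg, the host of the miR-17-92 cluster, was near the limit of detection throughout. It had 8, 10 and 8 counts in Veh_N, 3, 3 and 1 in Veh_LPS and 2, 4 and 3 in D2HG_LPS, or 0.552 to 0.627, 0.0875 to 0.318 and 0.195 to 0.342 CPM. Every Veh_N library was above every LPS-treated one. The log2 ratio of summed counts, Veh_LPS over Veh_N, was -1.38, with an exact 95% binomial interval of -2.83 to -0.14 that covers counting error only. With no filter on low counts edgeR did not call it (Benjamini-Hochberg adjusted p = 0.0825). For D2HG_LPS over Veh_LPS the ratio was 0.31 with an interval of -1.28 to 1.97, so a difference was not detectable at this depth. The 6 hairpin lines of the cluster held 0 counts.

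Neat1, the scaffold RNA of paraspeckles, fell under LPS. It had 686, 640 and 587 CPM in Veh_N, 216, 207 and 156 CPM in Veh_LPS, and 299, 260 and 179 CPM in D2HG_LPS. Every LPS-treated library was below every Veh_N library, and the Veh_LPS and D2HG_LPS libraries overlapped. Veh_LPS over Veh_N gave a log2 fold change of -1.72 ± 0.17 (SE; edgeR, Benjamini-Hochberg adjusted p = 1.07e-06). For D2HG_LPS over Veh_LPS it was 0.35 ± 0.17, with a 95% interval of -0.01 to 0.71 (adjusted p = 0.339), and it ran from 0.18 (without D2HG_LPS replicate 1) to 0.53 (without D2HG_LPS replicate 3) without single libraries.

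The table lists Neat1 as a short transcript of 3004 bases and a long one of 20771 bases that contains it, so the difference of the counts is the part found only in the long form. That part held 7.11%, 4.48% and 4.19% of the long line's counts in Veh_N, 6.30%, 6.44% and 10.1% in Veh_LPS, and 8.46%, 5.23% and 5.78% in D2HG_LPS. The group means were 5.26% ± 1.61, 7.61% ± 2.14 and 6.49% ± 1.73 (SD, n = 3), and the groups overlapped. Per kilobase, the short part had 52.8 to 135 times the counts of the long-only part in single libraries. The libraries were made with an mRNA kit per the labels, and how it weighs the 2 forms was not tested.

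Malat1, the abundant RNA of nuclear speckles, fell under LPS as well. It had 1986, 1323 and 1272 CPM in Veh_N, 759, 787 and 830 CPM in Veh_LPS, and 1163, 1095 and 656 CPM in D2HG_LPS. The Veh_LPS and Veh_N libraries did not overlap, and D2HG_LPS held 2 libraries above and 1 below all of Veh_LPS. The log2 fold change of Veh_LPS over Veh_N was -0.95 ± 0.20 (SE; edgeR, Benjamini-Hochberg adjusted p = 9.46e-04), and that of D2HG_LPS over Veh_LPS was 0.30 ± 0.20, with a 95% interval of -0.14 to 0.73 (adjusted p = 0.52). Without single libraries the latter ran from 0.15 (without D2HG_LPS replicate 1) to 0.51 (without D2HG_LPS replicate 3).

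A single noncoding transcript that no gene table matched took 0.438% to 2.25% of a library's counts and varied between replicates. It was highest in Veh_N replicate 1 (2.25%), Veh_LPS replicate 3 (2.08%) and D2HG_LPS replicate 1 (1.71%). These 3 libraries also had the highest Malat1 level and the highest long-only share of Neat1 within their groups. Without them the log2 fold change of Veh_LPS over Veh_N was -0.75 for Malat1 (edgeR, Benjamini-Hochberg adjusted p = 0.0091) and -1.53 for Neat1 (4.55e-08). That of Neat1 for D2HG_LPS over Veh_LPS went from 0.35 to 0.05 (adjusted p = 0.908), and that of Malat1 was 0.18. With the share of the transcript as a term in the fit, the LPS value of Malat1 was -0.80 and that of Neat1 -1.70, both called.

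**Figure D2:**
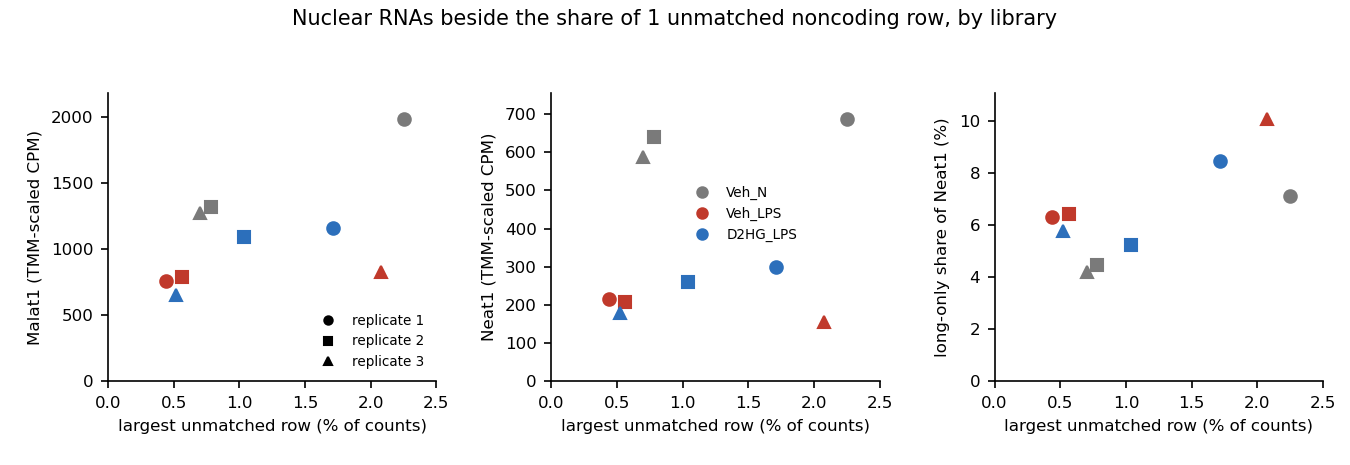
Malat1 level, Neat1 level and the long-only share of Neat1 counts (y axes) against the share of counts taken by the largest unmatched noncoding transcript (x axis, percent), 1 point per library, coloured by group and shaped by replicate. The rightmost library of each group has that group's highest Malat1 level and highest long-only share, while Neat1 is lowest in the rightmost Veh_LPS library.

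Gas5, a growth arrest RNA that hosts box C/D small nucleolar RNAs in its introns, had 34.3, 34.2 and 36.8 CPM in Veh_N, 20.6, 20.2 and 15.4 CPM in Veh_LPS, and 24.4, 25.2 and 22.2 CPM in D2HG_LPS. The 3 groups did not overlap, with Veh_LPS lowest. The log2 fold change of Veh_LPS over Veh_N was -0.91 ± 0.12 (SE; edgeR, Benjamini-Hochberg adjusted p = 1.48e-05). Its transcript was identified through GENCODE vM21, where it is typed as a retained intron, so the counts may include RNA that is not fully spliced.

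Gas5 was the member nearest to a call between D2HG_LPS and Veh_LPS. D2HG_LPS over Veh_LPS gave a log2 fold change of 0.36 ± 0.12, with a 95% interval of 0.09 to 0.62, an unadjusted p of 0.0123 and a Benjamini-Hochberg adjusted p of 0.17 by edgeR. It ran from 0.22 to 0.43 over the alternatives, with 0.23 without Veh_LPS replicate 3. It was called in 1 of them, with the share of the unmatched transcript as a term (0.38, adjusted p = 0.0383), and was smallest without the 3 libraries highest in that transcript (0.22, adjusted p = 0.469).

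Snhg12, another host of intronic small nucleolar RNAs, had the most negative LPS estimate of the 5, with a 95% interval (-3.02 to -1.66) that overlapped that of Neat1 (-2.09 to -1.36). It had 2.48, 3.44 and 4.08 CPM in Veh_N, 0.889, 0.530 and 0.525 CPM in Veh_LPS, and 1.17, 1.02 and 1.18 CPM in D2HG_LPS. The groups did not overlap, and the Veh_LPS libraries held only 9, 5 and 6 counts. The log2 fold change of Veh_LPS over Veh_N was -2.34 ± 0.31 (SE; edgeR, Benjamini-Hochberg adjusted p = 1.9e-05), and that of D2HG_LPS over Veh_LPS was 0.79 ± 0.39, with a 95% interval of -0.05 to 1.63 (adjusted p = 0.353).

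Snhg1, which hosts the small nucleolar RNAs of the U22 locus, was a low-count member too. It had 3.31, 4.21 and 4.78 CPM in Veh_N, 1.58, 2.65 and 1.49 CPM in Veh_LPS, and 2.34, 2.65 and 3.75 CPM in D2HG_LPS. Veh_LPS lay wholly below Veh_N, while D2HG_LPS overlapped both. The log2 fold change was -1.11 ± 0.27 (SE) for Veh_LPS over Veh_N (edgeR, Benjamini-Hochberg adjusted p = 0.00258) and 0.62 ± 0.30 for D2HG_LPS over Veh_LPS, with a 95% interval of -0.02 to 1.27 (adjusted p = 0.338). The latter was 0.41 without D2HG_LPS replicate 3 and 0.92 without Veh_LPS replicate 2, and was not called in either fit. Of the hosted small RNA lines of the 3 hosts, the fullest held 20 counts over the 9 libraries (Snord22), so these data give no levels for the small RNAs.

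Between D2HG_LPS and Veh_LPS edgeR called 2.11% of all tested genes (1.15% higher, 0.955% lower), 1.41% of those with a noncoding transcript and 0 of the 7 tested members. At an unadjusted p below 0.05 it marked 1 of the 7 (Gas5), against 15.8% of all genes, and DESeq2 and limma-voom called 0. The groups did not overlap for 3 members, Mir22hg, Gas5 and Snhg12, all higher in D2HG_LPS, and 24.2% of all tested genes did not overlap, 11.8% in that direction. The median log2 fold change of the 7 was 0.35, against 0.04 for the tested genes with a noncoding transcript and 0.01 for all tested genes. The members were chosen with earlier results of these data known, so this contrast describes the set only. The 95% intervals of Neat1, Snhg1 and Snhg12 reach to 0.71, 1.27 and 1.63, so they do not exclude differences up to those sizes.

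Against Veh_N, the D2HG_LPS group was called for 6 of the 7 members, 2 higher and 4 lower. Of all tested genes 72.6% were called, 35.4% higher and 37.2% lower. Mir155hg, among the higher members, passed the filter on low counts through the LPS-treated libraries alone. The log2 fold changes were 1.12 ± 0.10 (SE) for Mir22hg, -1.38 ± 0.17 for Neat1, -0.65 ± 0.20 for Malat1, -0.55 ± 0.12 for Gas5 and -1.56 ± 0.28 for Snhg12. The value of Malat1 was -0.42 without Veh_N replicate 1 and -0.43 without D2HG_LPS replicate 3, still called, and its call was lost with no filter on low counts (edgeR, Benjamini-Hochberg adjusted p = 0.0711). Snhg1 was not called (-0.49 ± 0.25; edgeR, Benjamini-Hochberg adjusted p = 0.0979), but was called without Veh_N replicate 1 (-0.62) or D2HG_LPS replicate 3 (-0.70). Both comparisons of LPS-treated groups share the Veh_N libraries, and the comparison of D2HG_LPS with Veh_LPS shares a group with each of them.

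**Figure D3:**
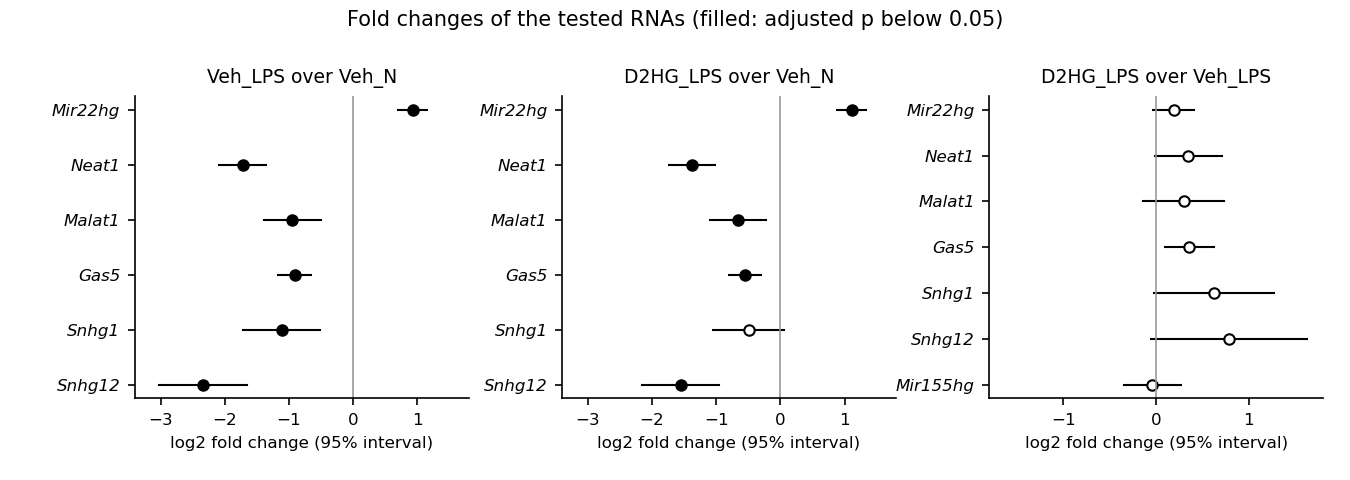
Log2 fold changes from edgeR (x axes) with 95% intervals as lines for the tested RNAs (y axes) in the 3 comparisons, filled where the adjusted p is below 0.05. Mir155hg is left out of the comparisons with Veh_N, where it had 0 counts. In D2HG_LPS over Veh_LPS none of the 7 points is filled, and the interval of Gas5 (0.09 to 0.62) does not reach 0.

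Per length, the order of the 8 RNAs differed between unstimulated and stimulated cells. In Veh_N, Malat1 had 219 ± 57.0 RPKM (CPM per kilobase, mean ± SD, n = 3), Neat1 30.7 ± 2.38, Gas5 13.7 ± 0.579, Mir22hg 9.35 ± 0.579, Snhg1 6.78 ± 1.23, Snhg12 5.50 ± 1.32 and Mir17hg 0.253 ± 0.0161, with Mir155hg at 0. Snhg1 and Snhg12 differed by less than their SDs added. In Veh_LPS the order was Malat1 at 113 ± 5.10, Mir22hg at 17.7 ± 1.83, Mir155hg at 10.1 ± 0.712, Neat1 at 9.31 ± 1.56, Gas5 at 7.33 ± 1.13, Snhg1 at 3.15 ± 1.07, Snhg12 at 1.07 ± 0.344 and Mir17hg at 0.100 ± 0.0544. There Mir155hg and Neat1, and Neat1 and Gas5, were neighbours whose ranges of ± 1 SD overlapped. In D2HG_LPS the corresponding RPKM was 139 ± 39.5 for Malat1, 20.3 ± 0.549 for Mir22hg, 11.8 ± 2.93 for Neat1, 9.86 ± 0.883 for Mir155hg, 9.36 ± 0.604 for Gas5, 4.81 ± 1.23 for Snhg1, 1.86 ± 0.146 for Snhg12 and 0.119 ± 0.0321 for Mir17hg, with overlap among Neat1, Mir155hg and Gas5. The length was that of the transcript, except for Mir17hg, where it was the RefSeq gene span of 2339 bases. The RPKM of Gas5 rests on the 2556 bases of the transcript typed as a retained intron, and its place in the order would move with another length. Neat1 depends on the length as well, since over its short form it had 201 ± 12.6, 59.6 ± 11.2 and 76.4 ± 18.03 RPKM in Veh_N, Veh_LPS and D2HG_LPS.

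Other host genes measured beside the set moved in part. Under LPS 35% of all tested genes were called higher and 38.9% lower, and the list counts below stand beside these shares. Of 18 other small nucleolar RNA hosts 13 were tested, and 7 were lower and 0 higher under LPS, with a median log2 fold change of -0.94. Snhg5 (-1.86 ± 0.26 SE), Epb41l4aos (-2.65 ± 0.38) and Snhg20 (-2.51 ± 0.42) had the smallest p of these. The count was 7 lower with 2 higher under DESeq2 size factors, 10 lower with library totals alone and 6 lower with 1 higher without the 3 libraries highest in the unmatched transcript. In D2HG_LPS over Veh_LPS 0 of the 13 were called, beside 2.11% of all tested genes. Of 14 other microRNA hosts 3 were tested, and all 3 were lower under LPS. These were Dleu2 (-0.85 ± 0.21), which carries miR-15a and miR-16-1, the X-linked Ftx (log2 ratio of 8 to 91 counts -3.0, 95% counting interval -4.25 to -1.96), and Mir99ahg (-1.04 ± 0.40). The call of Mir99ahg was lost without Veh_N replicate 1 or 3 or Veh_LPS replicate 1 or 2. With all transcripts of a gene summed 4 microRNA hosts were tested, 1 higher and 3 lower. Without the 3 libraries highest in the unmatched transcript 4 were tested, 1 higher and 2 lower. With the share of that transcript as a term 2 of 3 were lower.

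Of 20 other long noncoding RNAs, chosen for known roles, 9 were tested and 2 were higher and 6 lower under LPS. Of all tested genes 35% were higher and 38.9% lower. Ptgs2os2, transcribed beside the prostaglandin synthase gene Ptgs2, had 358 counts in Veh_LPS and 2 in Veh_N, a log2 ratio of 7.99 with a 95% counting interval of 6.13 to 11.05. Morrbid, a myeloid survival RNA named here after its value was seen, rose by 2.54 ± 0.30 (SE). Kcnq1ot1, an imprinted antisense RNA, fell by 2.55 on the log2 scale and the X-linked Firre fell by 2.14. Norad (-0.32) and Oip5os1 (-0.31), named here after their values were seen, were also among the 6 lower. Both calls were lost without Veh_LPS replicate 1 or 2, and that of Oip5os1 also without Veh_N replicate 1. In D2HG_LPS over Veh_LPS 0 of the 9 were called, beside 2.11% of all tested genes, with Firre at 0.81 ± 0.24 (edgeR, Benjamini-Hochberg adjusted p = 0.122). With the share of the unmatched transcript as a term, 1 of the 9 was called higher. Whether reads were counted by strand is unknown here, so antisense and neighbouring genes may share reads.

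The proteins that act on these RNAs were read at the level of their messenger RNAs. Their counts stand beside 35% of all tested genes called higher under LPS and 38.9% called lower. Of 12 genes of microRNA processing 3 were higher and 7 lower under LPS, with the Argonaute gene Ago4 at -2.77 ± 0.17 (SE), Prkra, a Dicer partner, at -1.12 ± 0.12 and Dgcr8 at -1.19 ± 0.13. The 3 higher ones, Drosha (0.29), Ddx5 (0.33) and Tarbp2 (0.77), were named after their values were seen. The call of Ddx5 was lost without Veh_N replicate 2 or 3, Veh_LPS replicate 3 or D2HG_LPS replicate 1, and Drosha and Ddx5 turned lower with library totals alone, where 0 were higher and 11 lower. Of 12 paraspeckle protein genes 6 were higher and 1 lower, with Nono at 1.46 ± 0.07 and Hnrnpk at 0.65 ± 0.09. With library totals alone 2 were higher and 9 lower, and Hnrnpk was at -0.02. Neat1 RNA and Nono messenger RNA thus moved in opposite directions under each scaling tried. Of 10 nuclear speckle genes 4 were higher and 2 lower, with the splicing factors Srsf3 at 1.31 ± 0.09, Srsf7 at 1.05 ± 0.10 and Srsf5 at -0.88 ± 0.10, and with library totals alone 2 were higher and 8 lower.

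Of 10 genes of nonsense-mediated decay, the pathway that clears spliced small nucleolar RNA hosts, 8 were higher and 2 lower under LPS. Their median log2 fold change was 0.71. The shares over all tested genes were 35% higher and 38.9% lower. Smg5, a factor that leads marked messenger RNAs to decay, rose by 1.07 ± 0.09 (SE). Smg6, the endonuclease of the pathway, fell by 1.45 on the log2 scale. With library totals alone 3 were higher and 4 lower, with a median of 0.04. Of 8 core proteins of small nucleolar ribonucleoprotein particles 3 were higher and 3 lower, with Nhp2 at 1.37 ± 0.12, Snu13 at 0.87 ± 0.22 and Nop56 at -0.64 ± 0.14. With library totals alone 1 was higher and 4 lower, with a median of -0.59 in place of 0.07, and Snu13 was at 0.20 and not called. In D2HG_LPS over Veh_LPS 0 members of any of these 5 protein lists were called by edgeR, beside 2.11% of all tested genes. With the share of the unmatched transcript as a term, 1 decay gene was called higher. Without the 3 libraries highest in that transcript 1 decay gene was called higher as well.

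**Figure D4:**
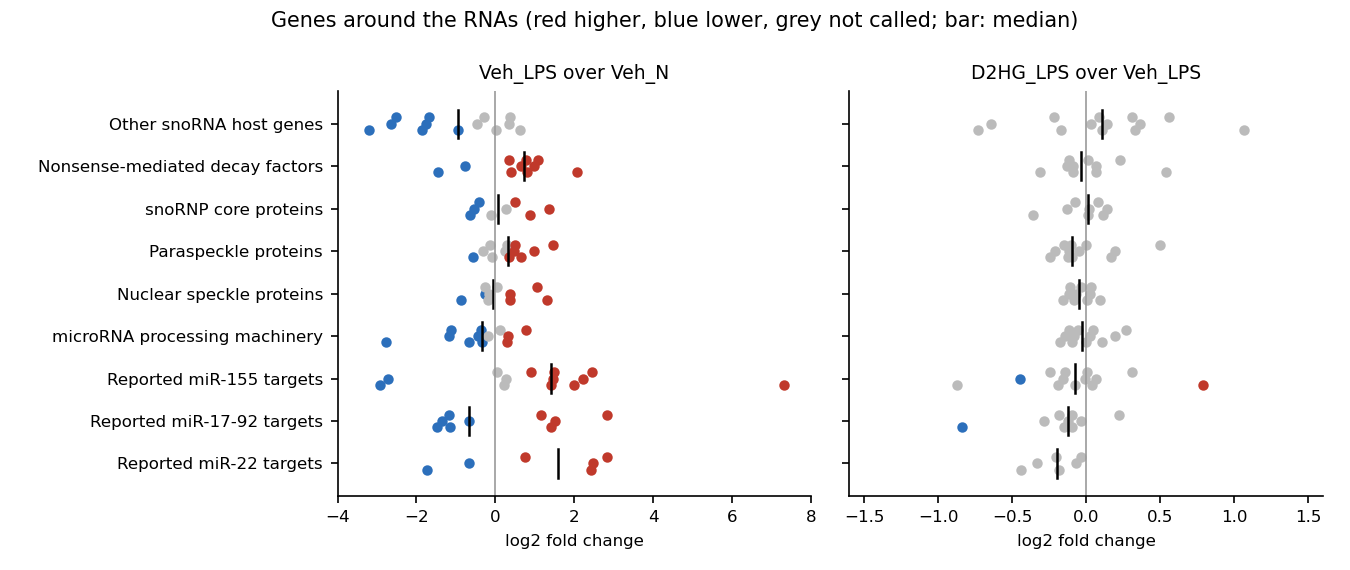
Log2 fold changes (x axes) of the tested genes of 9 lists (y axis), 1 point per gene, red where called higher, blue where called lower and grey where not called, with the median as a bar. Under LPS 8 of 10 decay factors are red and 7 of 13 other small nucleolar RNA hosts are blue, and in D2HG_LPS over Veh_LPS 3 points are coloured, Fos, Maf and Thbs1.

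Known regulators of the host genes included Nfkb1, Rela and Junb, whose products drive Mir155hg in activated macrophages, and Myc, a driver of Mir17hg. Of 9 listed 8 were tested, with 5 higher and 2 lower under LPS, beside 35% and 38.9% of all tested genes. With library totals alone 4 were higher and 4 lower (median 0.11 in place of 0.78). Nfkb1 rose by 2.92 ± 0.08 (SE), Junb by 2.22 ± 0.13 and Spi1, the myeloid transcription factor PU.1, by 1.47 ± 0.09. Myc, given here for its role and not by its p, had a log2 fold change of -0.30 ± 0.15 (SE) and was not called (edgeR, Benjamini-Hochberg adjusted p = 0.0772), and it was -0.97 and called with library totals alone. None of the 8 was called in D2HG_LPS over Veh_LPS by edgeR, beside 2.11% of all tested genes. The smallest p was that of Nfkb1 (-0.22 ± 0.07; edgeR, Benjamini-Hochberg adjusted p = 0.153). With the share of the unmatched transcript as a term, 1 of the 8 was called lower.

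Messenger RNAs reported as targets of the hosted microRNAs were listed from general knowledge, and their 3′ ends were searched for seed matches in the longest GENCODE vM21 3′ UTR of each gene. Of 13 listed miR-155 targets 10 held the 7-base match AGCATTA, against 8.29% of 21022 genes. Of 9 miR-17-92 targets 8 held a match to 1 of the cluster's seeds, and all 7 miR-22 targets held GGCAGCT, against 12.8% of genes. Genes enter such lists in part because they hold a match, so these counts are a description of the lists. Sites of some of the list members with the smallest p are given in build GRCm38, with the seed match in capitals. The capitals include an A opposite base 1 of the microRNA where present. Cdkn1a also held matches to miR-17-5p and miR-22-3p, which are not printed.

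Inpp5d, miR-155-5p, chr1:87719827-87719850, plus strand: tgtttttaaaaAGCATTAAagaaa

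Ikbke, miR-155-5p, chr1:131255148-131255170, minus strand: gccaacaaactAGCATTActttg

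Jarid2, miR-155-5p, chr13:44920082-44920105, plus strand: gattttgttttAGCATTAAactgt

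Max, miR-22-3p, chr12:76938307-76938329, minus strand: caccccaacttGGCAGCTctttc

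Tet2, miR-22-3p, chr3:133465318-133465340, minus strand: gaaagagaataGGCAGCTggttt

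Tgfbr2, miR-17-5p, chr9:116090068-116090091, minus strand: caataacgtttGCACTTTAttaat

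The listed miR-155 targets moved both ways under LPS, where Mir155hg appeared. Of the 13, 8 were higher and 2 lower (35% and 38.9% of all tested genes), with a median log2 fold change of 1.41. Inpp5d, which encodes the phosphatase SHIP1, had 238 ± 6.21 CPM in Veh_N and 31.1 ± 1.29 in Veh_LPS (SD, n = 3), and its fitted log2 change was -2.93 ± 0.08 (SE). Ikbke, a kinase of interferon signalling, went from 87.8 ± 3.69 to 410 ± 15.8 CPM (2.22 ± 0.07), and Jarid2, a partner of Polycomb complexes, from 31.1 ± 2.19 to 125 ± 7.40 CPM (2.00 ± 0.08). All 3 carry the match shown above, so genes with the match were found on both sides. With library totals alone 7 of the 13 were higher and 5 lower.

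Of the 9 miR-17-92 targets 4 were higher and 5 lower under LPS, with the cell cycle inhibitor Cdkn1a at 2.83 ± 0.09 (SE), the receptor Tgfbr2 at -1.48 ± 0.08 and the phagocytosis checkpoint Sirpa at -1.16 ± 0.07. Of the 6 tested miR-22 targets 4 were higher and 2 lower, with Max, the partner of Myc, at 2.46 ± 0.07 and Tet2, a DNA demethylase whose enzyme uses alpha-ketoglutarate, at 2.41 ± 0.13. Cdkn1a stood in both lists. The counts of both lists stand beside 35% of all tested genes called higher under LPS and 38.9% called lower.

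In D2HG_LPS over Veh_LPS 3 genes of these target lists were called, beside 2.11% of all tested genes. Fos, of the miR-155 list, was at 43.5 ± 2.94 CPM against 25.1 ± 1.73 (log2 fold change 0.79 ± 0.15 SE; edgeR, Benjamini-Hochberg adjusted p = 0.0207). Maf, of the same list, was at 373 ± 14.99 against 509 ± 52.0 CPM (-0.45 ± 0.10; adjusted p = 0.0356), and neither gene held the 7-base match to miR-155. Thbs1, of the miR-17-92 list, was at 167 ± 11.01 against 298 ± 49.9 CPM (-0.84 ± 0.14; adjusted p = 0.00781). The call of Thbs1 was lost without D2HG_LPS replicate 1, that of Fos without any 1 of 5 LPS-treated libraries (all but Veh_LPS replicate 3), and that of Maf without any 1 of the 6 or without Veh_N replicate 2. Tet2 was at 139 ± 8.97 against 188 ± 29.98 CPM (-0.44 ± 0.12) and was not called (adjusted p = 0.0979).

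Genes with the pattern most like each member were found by the root mean squared difference of centred log2 CPM over the 9 libraries (with 3 counts added to damp low values), among the 8004 or 8005 tested genes of at least 3 log2 CPM. For Mir155hg these were Cd274, the checkpoint ligand PD-L1 (difference 0.104), and the line Mir6381 (0.163), and for Mir22hg they were Tmbim4 (0.0523) and Cops5 (0.0594). For Neat1 they were Septin9 (0.186) and Gigyf1 (0.187), for Malat1 Wdr13 (0.163) and Klhl7 (0.166), and for Gas5 Ap5z1 (0.102) and Tmc6 (0.104). For Snhg12 they were Gmnn (0.153) and Dbndd2 (0.160), and for Snhg1 Adprhl2 (0.165) and Ssna1 (0.166). For Mir17hg, whose low counts were damped too, they were Dlg4 (0.0997) and Sft2d1 (0.125). Mir155hg had 0 counts in Veh_N, so the added 3 counts set its Veh_N values and the size of its rise here. Its nearest genes therefore depend on that added count. Of these neighbours, Cd274 went from 46.1 CPM in Veh_N to 2601 in Veh_LPS and 2570 in D2HG_LPS.

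Library depth was 9451258 to 13759935 counts. Markers fixed for macrophages summed to 13049 to 15522 CPM in Veh_N and 11122 to 11857 in the LPS-treated libraries. Lymphoid and erythroid markers summed to 0.849 to 1.88 CPM over all 9 libraries. Neutrophil markers summed to 25.8 to 34.2 CPM in Veh_N, 55.7 to 71.8 in Veh_LPS and 53.4 to 66.5 in D2HG_LPS, and dendritic cell markers to 41.2 to 45.1, 103 to 106 and 78.6 to 88.2. Stromal and endothelial markers summed to 8.78 to 11.9, 150 to 169.2 and 91.4 to 101.4 CPM. These sums differed between Veh_N and the LPS-treated groups, and stromal and dendritic sums also between Veh_LPS and D2HG_LPS, and their part in the members' changes was not tested.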

How the data were processed

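Per the labels, RNeasy-purified RNA went into stranded KAPA mRNA HyperPrep libraries. The authors deposited raw read counts for 35745 RefSeq transcripts in 9 libraries. Per the submitters' processing notes, STAR 2.5.2b and DESeq2 were used and builds mm10 and mm9 are listed without roles. Details of the counting (program, annotation, strand) were not given in the sources used here. Of the transcripts 35440 were matched to symbols through a RefSeq table (GRCm38.p6) and 188 through GENCODE vM21. The 117 unmatched ones, 0.676% to 2.37% of a library, stayed out of library sizes and tests. The transcript with most counts was used per gene.

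Counts of 11622 genes kept by filterByExpr were scaled by TMM and tested in edgeR 4.0.16 (R 4.3.3, glmQLFit with robust=TRUE, glmQLFTest, two-sided), with group as the only term, and called where the Benjamini-Hochberg adjusted p was below 0.05. Standard errors are log2 fold changes divided by the root of F. DESeq2 1.42.0, limma 3.58.1 (voom), other scalings and filters, summed transcripts, a replicate block, fits of 2 groups and fits without single libraries were alternatives. A fit with the share of the largest unmatched transcript, and one without the library highest in it in each group, were added after seeing the data. Depth was 9451258 to 13759935 counts per library. All replicate pairs exceeded counting noise (chi-square per degree of freedom 2.78 to 23.9). In simulated data for D2HG_LPS against Veh_LPS (11533 genes), edgeR recovered 43.2% of genes changed 1.5-fold, 87.3% changed 2-fold and 93.7% changed 4-fold.

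The members and the gene lists were chosen with earlier results of these data known. Named genes are the 8 members, up to 3 called genes of smallest p per list in Veh_LPS over Veh_N and in D2HG_LPS over Veh_LPS, and the 2 genes of most similar pattern per member, without predicted genes. Some genes that this rule picks are not reported here.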

Additional observations from a re-analysis of the deposited data

How the results depend on the processing

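All 7 tested members stayed called in Veh_LPS over Veh_N under each of 20 alternatives, with their direction. Mir155hg passed the filter through the LPS-treated libraries alone and Snhg12 mainly through the Veh_N libraries, so their passing was tied to their change. Upper-quartile scaling and library totals alone moved the median gene of that comparison from -0.07 to -0.39 and -0.74, and the share of calls that were higher from 47.4% to 33.2% and 21.8%. In D2HG_LPS over Veh_LPS 245 genes were called, against 522 with DESeq2, 450 with only the 2 groups in the fit, 93 with the replicate block, 1041 with the share of the unmatched transcript as a term, and 64 to 501 without single libraries. The share of higher calls there was 54.7%, against 40.8% with DESeq2 size factors, 34.3% with the DESeq2 test and 74.4% with library totals alone. The number of members called in that comparison was 1 with the share of the unmatched transcript as a term (Gas5, 0.38) and 0 otherwise. Mir155hg, at -0.04 and called nowhere, turned to 0.0231 with library totals alone, to 0.0634 without the library highest in the unmatched transcript in each group, and ran from -0.12 to 0.0193 without single libraries. Mir17hg ran from -0.13 to 0.60 in that comparison. In D2HG_LPS over Veh_N, Snhg1 (-0.49) became called with upper-quartile scaling (-0.79), library totals alone (-1.10) and the share of the unmatched transcript (-0.53), and ran from -0.70 to -0.35 without single libraries. Malat1 was no longer called with no filter (-0.65, edgeR, Benjamini-Hochberg adjusted p = 0.0711). The causes were not tested. Same-numbered libraries did not deviate together (correlations -0.456 to 0.191), so the replicate block rests on the number alone, and it changed no member's call. Depth limits Mir17hg, with 1 to 10 counts per library, and the Veh_LPS level of Snhg12, with 5 to 9.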

Other observations

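Among the 566 tested genes with a noncoding transcript, 8 (1.41%) were called in D2HG_LPS over Veh_LPS, and none is a member of the set. They are named after their values were seen. Gm45916 was at 27.9 against 3.54 CPM, a log2 fold change of 2.96 ± 0.17 (SE), with 18.1 CPM in Veh_N, and Plxna4os1 (1.18), Hmga2-ps1 (0.79) and Gm45928 (0.74) were higher as well. AW112010, an interferon-inducible transcript, was at 976 against 1322 CPM (-0.44 ± 0.08), with 9.41 CPM in Veh_N, and 2610001J05Rik (-0.40), Bambi-ps1 (-0.46) and 4921529L05Rik (-1.67) were lower as well. With edgeR and Benjamini-Hochberg adjustment, the calls of Gm45916 (adjusted p = 2.84e-06) and 4921529L05Rik (0.00571) held without any single library, and those of the other 6 were each lost without at least 3 single libraries in turn.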
